A study of Mus musculus with 12 samples.

Results

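The 10 genes described here, Cd68, Msr1, Ms4a7, Tyrobp, Fcer1g, Fcgr1, Fcgr3, Trem2, Clec7a and Cd14, encode proteins with which phagocytes bind, engulf and digest material or signal that they have done so. They were chosen by name: every probe set whose platform gene symbol is one of the 10 was taken, which gave 16 probe sets, 13 of them above the filter on low signals, and 10 of the 13628 genes tested. Phagocytes recognise dying cells, antibody-coated particles and microbial products through scavenger receptors, lectins and Fc receptors, many of which signal through small membrane adaptors that carry an ITAM motif. Engulfed material is broken down in lysosomes, whose membrane protein Cd68 is widely used as a stain for active macrophages. In the olfactory epithelium, removal of the olfactory bulb takes away the target of the sensory neurons, which then die, and macrophages in the epithelium are known to take up the debris.

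The study used male C57BL/6J mice, 6 weeks old, and measured RNA of the olfactory epithelium, dissected out, on 12 single-colour Affymetrix arrays, 3 in each of 4 groups. All mice received liposomes, 50 µl into the nose on each of 3 days and 200 µl into a vein on days 1 and 3, and all had either a bilateral olfactory bulbectomy or a sham operation on day 2, 48 h before the tissue was taken. The groups were clodronate liposomes with bulbectomy (Lip-C OBX), clodronate liposomes with sham operation (Lip-C sham), empty liposomes with bulbectomy (Lip-O OBX) and empty liposomes with sham operation (Lip-O sham). Clodronate liposomes kill the phagocytes that swallow them and act on any such cell that they reach, so Lip-C mice are a model of partial, not cell-type-specific, depletion. The titles call the replicates biological. No source used here says how many mice an array stands for, and p-values measure the spread between these samples alone. In a whole tissue, fewer cells of a type and less RNA per cell cannot be told apart.

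None of 9 markers of mature olfactory neurons lay below the 40th percentile on every array. The same held for 8 markers of sustentacular cells, the supporting cells of the epithelium. Of 13 resident macrophage markers, Lyve1 and Cd4 lay below it on every array. None of 8 pan-leukocyte markers or 5 liver plasma protein genes did, so this criterion does not identify the tissue. The values are probe set intensities on a linear scale, called signals here, with array medians from 117.5 to 134.2 and 40th percentiles from 65.3 to 79.3. On that measure 7 of the 10 genes exceeded the 40th percentile on all 12 arrays, Trem2 on 10, Fcgr1 on 7 and Msr1 on 5. The 5 arrays of Msr1 were all bulbectomy arrays, so this gene entered the test only through the operation in which it was higher. Msr1 is therefore left out of the bulbectomy counts below, which cover the other 9 genes, and its test is no independent support. Changes of Msr1, and those of Fcgr1 that involve its dim group, are therefore described by their signals.

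After bulbectomy, Cd68 and Ms4a7 rose in both liposome treatments. In Lip-C mice 4 of the 9 genes rose (Cd68, Ms4a7, Trem2 and Clec7a), none fell, and all 9 estimates were positive. In Lip-O mice 2 rose (Cd68 and Ms4a7), none fell, and 8 were positive. Cd14 did not pass the test in either treatment. Rising meant an adjusted p below 0.05 in limma, adjusted over all genes tested, and 10.3% of all genes rose in Lip-C mice and 10.7% in Lip-O mice. The median log2 change of the 9 genes was 0.86 in Lip-C mice and 0.70 in Lip-O mice, against 0.04 and 0.05 for all genes tested. The count for Lip-C mice was 2 without Lip-C OBX replicate 1 or 2 or Lip-C sham replicate 2 or 3, and the count for Lip-O mice was 4 without Lip-O OBX replicate 3 or Lip-O sham replicate 1. The calls over all genes moved too. In Lip-C mice 840 genes passed without Lip-C OBX replicate 1, against 1403 risen and 1203 fallen with all arrays. In Lip-O mice 1414 to 2788 passed without 1 array, against 1462 risen and 1204 fallen. These changes of count cannot be called particular to the 9 genes. Same-numbered arrays of Lip-O OBX and Lip-O sham deviated together, and with the replicate number as a block 4 of the 9 genes passed in Lip-O mice, Fcer1g and Fcgr1 in addition. The shares of all genes above belong to the fit without the block, so this gain cannot be called particular to these genes. The pairs of groups share no array, although all 12 arrays gave the common estimate of the spread.

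**Figure D1:**
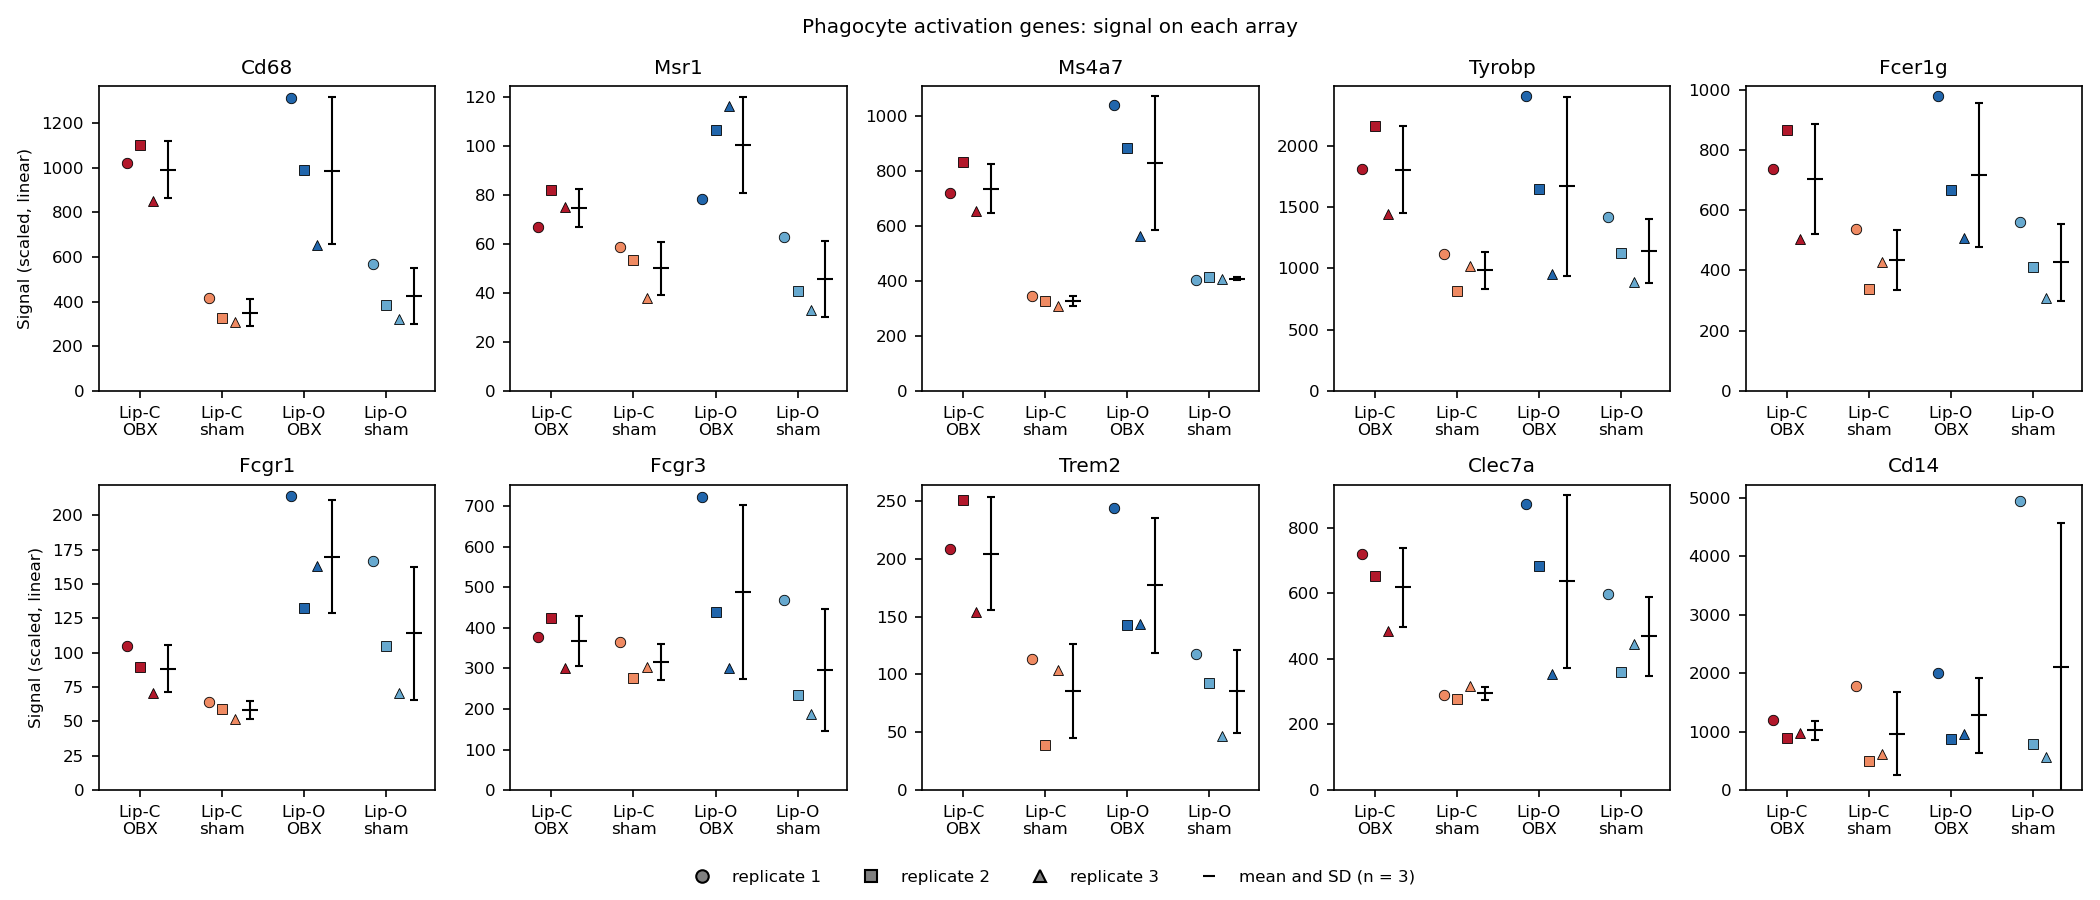
Signal of each of the 10 genes on each array (scaled intensity, linear axis from 0), with the mean and SD of 3 arrays beside the points; columns run Lip-C OBX, Lip-C sham, Lip-O OBX and Lip-O sham, symbols mark the replicate number, and the lower SD bar of Cd14 in Lip-O sham is cut at 0. For Cd68 and Ms4a7 the 3 OBX arrays lie above the 3 sham arrays in both treatments, while Cd14 has 1 Lip-O sham array at 4955 and 2 below 800.

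Cd68 encodes a heavily glycosylated protein of the lysosomal and endosomal membrane of phagocytes. Its signal was 1019, 1102 and 851 on the Lip-C OBX arrays, against 419, 326 and 307 on the Lip-C sham arrays. In Lip-O mice it was 1312, 989 and 656 on the OBX arrays, against 566, 387 and 324 on the sham arrays. All OBX arrays exceeded all sham arrays of the same treatment, and Lip-O OBX replicate 3 was the lowest of the 6 OBX arrays. Cd68 rose by 1.46 ± 0.26 on the log2 scale in Lip-C mice (SE; 2.75-fold, adjusted p = 0.00689) and by 1.16 ± 0.26 in Lip-O mice (2.24-fold, adjusted p = 0.0116). Both calls held in every fit that left out 1 array, with adjusted p of at most 0.0319 and 0.0465. In Lip-O mice the call was lost when only the 6 arrays compared entered the fit (adjusted p = 0.055). Among all genes tested, the size of its change ranked at the 99.6th percentile in Lip-C mice and at the 99th in Lip-O mice.

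The RefSeq promoter table (GRCm38.p6) held a window for 7 of the 10 genes, from 250 bases before to 50 bases after the annotated start. Msr1, Tyrobp and Cd14 had no entry. The upstream bases of Cd68, which lie at chr11:69666171-69666420 on the minus strand, are shown because Cd68 had the largest bulbectomy change of the 10 genes. Capitals mark GAGGAA, the core of many sites for ETS factors such as PU.1, the product of Spi1 and a master regulator of myeloid genes.
Cd68 upstream: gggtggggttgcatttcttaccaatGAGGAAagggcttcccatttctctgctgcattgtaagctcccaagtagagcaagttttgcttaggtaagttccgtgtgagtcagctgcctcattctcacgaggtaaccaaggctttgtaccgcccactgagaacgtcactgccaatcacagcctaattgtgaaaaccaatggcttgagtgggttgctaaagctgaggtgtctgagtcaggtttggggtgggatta
On either strand, GAGGAA occurred in the windows of 6 of the 7 genes, all but Fcer1g, and in the windows of 31.3% of all 27025 genes in the table. The motifs were chosen after these sequences had been read, and a match is a description of letters, not a binding site. CACGTG, the E-box core found in lysosomal genes that TFEB controls, occurred in none of the 7, and in 8.09% of all genes.

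Msr1 encodes the class A scavenger receptor, which binds modified lipoproteins, apoptotic cells and bacterial surfaces. By its brightest probe set, 1448061_at, its signal was 66.9, 82.2 and 75.4 on the Lip-C OBX arrays, against 58.9, 53.5 and 38.1 on the Lip-C sham arrays. The Lip-O values were 78.5, 107 and 116 on the OBX arrays, against 63.1, 41.0 and 33.1 on the sham arrays. The OBX arrays exceeded the sham arrays in both treatments, but all sham signals lay below the arrays' 40th percentiles. The fit put Msr1 past the threshold in Lip-O mice (adjusted p = 0.00888, and 0.0167 with no filter on low signals) and not in Lip-C mice (0.109, and 0.159 with no filter), and these values describe a gene that the filter let in through its OBX arrays. The replicate with the highest Msr1 signal in Lip-O OBX was replicate 3, which was the lowest of that group for Cd68, Ms4a7, Tyrobp, Fcer1g, Fcgr3 and Clec7a.

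The other kept probe sets of Msr1 did not pass the test in either treatment. Probe set 1422062_at read 87.7, 14.1 and 71.1 on the Lip-C OBX arrays, against 55.5, 13.1 and 31.6 on the Lip-C sham arrays, and probe set 1425434_a_at read 89.3, 39.9 and 68.9 against 39.1, 6.9 and 24.5. In Lip-O mice 1422062_at read 118, 81.6 and 65.8 on the OBX arrays, against 81.3, 32.4 and 66.1 on the sham arrays, and 1425434_a_at read 98.2, 51.0 and 55.8 against 81.9, 37.1 and 10.6. On both, the OBX and sham ranges overlapped in Lip-O mice, and neither passed the test there (adjusted p = 0.52 and 0.361). On 1425434_a_at the Lip-C OBX arrays lay above the Lip-C sham arrays, at an adjusted p of 0.139. Another Msr1 probe set, 1425435_at, stayed below the 40th percentile on all 12 arrays. With the mean of the kept probe sets in place of the brightest, Msr1 was not past the threshold in Lip-O mice (adjusted p = 0.127). Across the 12 arrays the brightest probe set correlated with the other kept ones at r = 0.308 and 0.585, and these had r = 0.687 with each other.

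**Figure D2:**
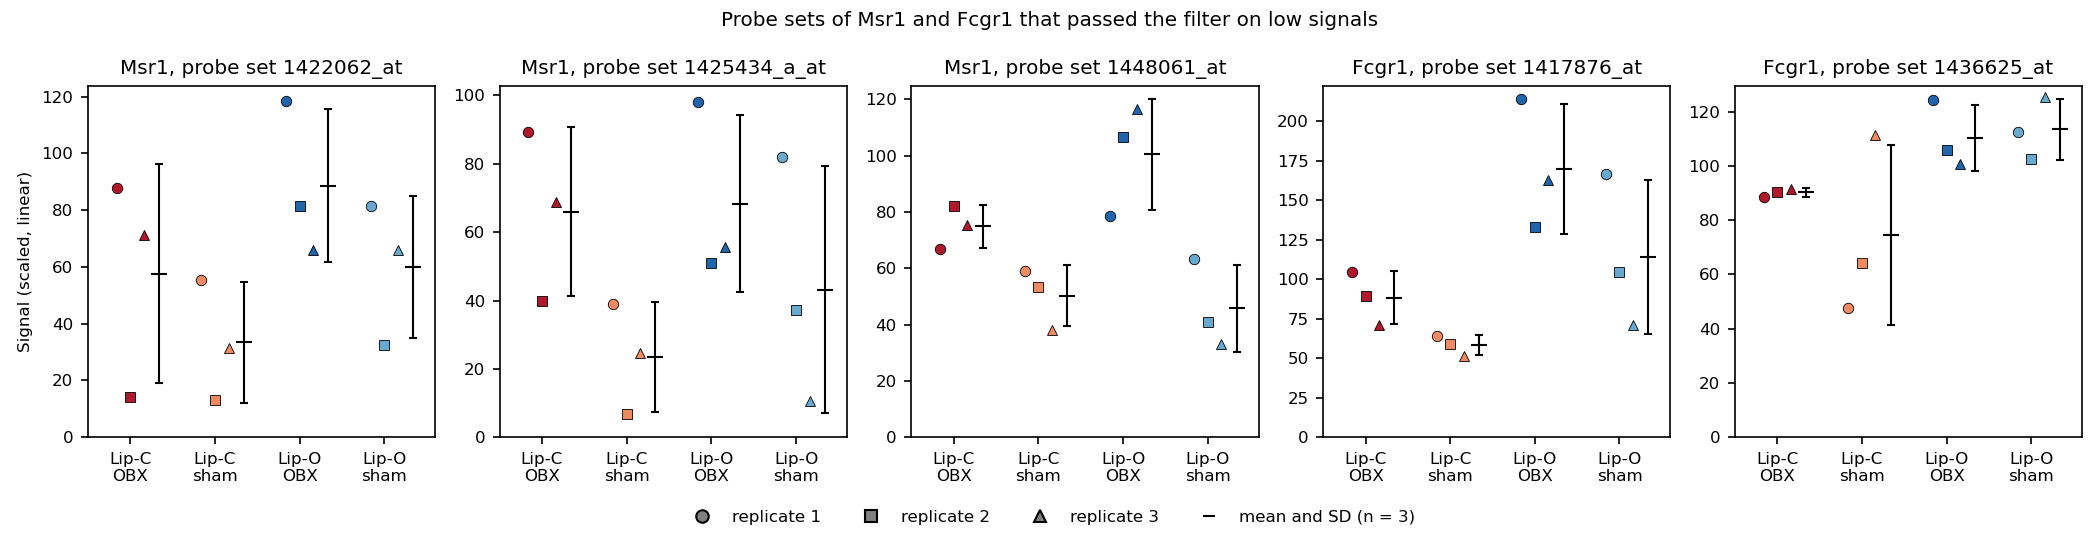
Signal on each array of the 3 kept probe sets of Msr1 and the 2 kept probe sets of Fcgr1 (scaled intensity, linear axis from 0), with mean and SD of 3 arrays, in the order Lip-C OBX, Lip-C sham, Lip-O OBX, Lip-O sham. OBX and sham arrays separate in both treatments on Msr1 probe set 1448061_at alone, and on Fcgr1 probe set 1417876_at the Lip-C arrays lie below the Lip-O arrays of the same operation.

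Ms4a7 encodes a membrane-spanning protein of the Ms4a family that macrophages express. It read 722, 832 and 654 on the Lip-C OBX arrays, against 345, 328 and 310.5 on the Lip-C sham arrays. In Lip-O mice it read 1039, 883 and 562 on the OBX arrays, against 402.5, 415 and 407 on the sham arrays. All OBX arrays exceeded all sham arrays of either treatment, and the Lip-O sham arrays lay between 402.5 and 415. Ms4a7 rose by 1.12 ± 0.18 on the log2 scale in Lip-C mice (2.18-fold, adjusted p = 0.00551) and by 0.95 ± 0.18 in Lip-O mice (1.93-fold, adjusted p = 0.00662), the lowest adjusted p of the 10 genes in either comparison. Both calls held without any single array, with adjusted p of at most 0.0264 and 0.0243. Its second probe set, 1445365_at, did not exceed the 40th percentile on any array.

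Trem2 encodes a receptor for lipids, lipoproteins such as ApoE and dying cells that signals through Tyrobp. Its signal was 209, 251 and 154 on the Lip-C OBX arrays, against 114, 38.7 and 104 on the Lip-C sham arrays. The Lip-O values were 244.5, 143 and 143 on the OBX arrays, against 117, 92.7 and 46.5 on the sham arrays. The groups did not overlap in either treatment, and the sham arrays spread widely, with Lip-C sham replicate 2 and Lip-O sham replicate 3 lowest. Trem2 rose in Lip-C mice by 1.19 ± 0.37 (2.29-fold, adjusted p = 0.0475), and its estimate in Lip-O mice, 0.96 ± 0.37, did not pass the test (adjusted p = 0.0973, 95% interval 0.13 to 1.78). The call was lost, at adjusted p between 0.0556 and 0.147, without Lip-C OBX replicate 1 or 2, Lip-C sham replicate 2 or 3, Lip-O OBX replicate 2 or 3, or Lip-O sham replicate 2, and under 7 other settings, among them quantile normalization (0.0768). Its second probe set, 1421226_at, stayed below the 40th percentile on all arrays.

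Clec7a encodes dectin-1, a lectin for fungal beta-glucans that signals through the kinase Syk by a motif in its own tail. It read 719, 653 and 485 on the Lip-C OBX arrays, against 289, 277 and 318 on the Lip-C sham arrays. In Lip-O mice it read 872.5, 683 and 353 on the OBX arrays, against 599, 361 and 445 on the sham arrays. The Lip-C groups stood apart, while in Lip-O mice OBX replicate 3 lay below every sham array. Clec7a rose in Lip-C mice by 1.02 ± 0.29 (2.02-fold, adjusted p = 0.0363) and had an estimate of 0.37 ± 0.29 in Lip-O mice (adjusted p = 0.412, 95% interval -0.28 to 1.01). The Lip-C call was lost without Lip-C OBX replicate 1 or 2 or any of the 3 Lip-C sham arrays (adjusted p between 0.0762 and 0.124). It was also lost with no filter on low signals (0.0601) and with either centring of arrays on sustentacular cell markers (0.0579 and 0.0571). Without Lip-O OBX replicate 3 the Lip-O difference passed the test, with 0.73 on the log2 scale (adjusted p = 0.0452). The difference between both bulbectomy effects, 0.65 ± 0.41, was the largest of the 10 genes and did not pass (adjusted p = 0.441).

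Cd14 encodes the co-receptor that hands bacterial lipopolysaccharide to Tlr4. It read 1202, 886 and 978 on the Lip-C OBX arrays, against 1783, 490 and 617 on the Lip-C sham arrays. The Lip-O values were 2007, 868 and 952 on the OBX arrays, against 4955, 793 and 563 on the sham arrays. Replicate 1 was the highest array of each group, and in the sham groups it was several times the other replicates. The estimates were 0.31 ± 0.73 in Lip-C mice and -0.14 ± 0.73 in Lip-O mice (adjusted p = 0.795 and 0.914), and the 95% interval in Lip-O mice ran from -1.76 to 1.48. On the same Lip-O sham arrays, S100a8, a neutrophil gene, read 12980, 7346 and 6028, and on the Lip-C sham arrays it read 14797, 7754 and 13809. The part of neutrophil content in the Cd14 values was not tested.

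Fcgr1 encodes the high-affinity receptor for IgG, and Fcgr3 a low-affinity activating receptor for IgG immune complexes. Both need the Fcer1g chain to signal and to stay on the cell surface. By its brighter probe set, 1417876_at, Fcgr1 read 105, 89.5 and 70.8 on the Lip-C OBX arrays, against 64.3, 59.1 and 51.6 on the Lip-C sham arrays. In Lip-O mice it read 214, 133 and 163 on the OBX arrays, against 167, 105 and 70.7 on the sham arrays. The OBX arrays exceeded the sham arrays in Lip-C mice, and the ranges overlapped in Lip-O mice. Neither difference passed the test (adjusted p = 0.193 in Lip-C mice and 0.141 in Lip-O mice), and the Lip-O difference passed without Lip-O sham replicate 1 (adjusted p = 0.0295) or with the replicate block (0.0435). The other probe set, 1436625_at, read 88.6, 90.6 and 91.5 on the Lip-C OBX arrays, against 47.6, 64.2 and 112 on the Lip-C sham arrays, and it read 124, 106 and 101 on the Lip-O OBX arrays, against 113, 103 and 125 on the Lip-O sham arrays. On that probe set the operations overlapped in both treatments.

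Fcgr3 read 378, 425 and 302 on the Lip-C OBX arrays, against 365, 277 and 304 on the Lip-C sham arrays. The Lip-O values were 724, 440 and 301 on the OBX arrays, against 469, 234 and 189 on the sham arrays. The ranges overlapped in both treatments. Its estimates were 0.21 ± 0.34 in Lip-C mice (adjusted p = 0.697) and 0.70 ± 0.34 in Lip-O mice (adjusted p = 0.176), and the Lip-O difference passed without Lip-O sham replicate 1 (adjusted p = 0.042).

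The windows of Fcgr1 and Fcgr3 held the longest run of identical bases between any pair of the 7 windows, 14 bases, found in 5 of the 32851 windows (0.0152%). Those 5 include the windows of Fcgr1 and Fcgr3 themselves. The run was picked for its length in these same sequences, so its rarity is no test. The upstream bases of Fcgr1 lie at chr3:96293970-96294219 on the minus strand. Capitals mark TTCCTC, which is GAGGAA read on the other strand, and the letters of TTCNNNGAA, the form of sites for STAT factors that act downstream of interferon gamma.
Fcgr1 upstream: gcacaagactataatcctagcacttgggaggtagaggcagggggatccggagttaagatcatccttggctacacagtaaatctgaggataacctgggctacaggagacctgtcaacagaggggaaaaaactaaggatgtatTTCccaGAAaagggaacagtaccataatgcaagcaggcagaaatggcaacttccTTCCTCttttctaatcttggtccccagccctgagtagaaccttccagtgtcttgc
TTCNNNGAA occurred in no other window of the 7 genes and in the windows of 9.55% of all genes, and it did not overlap TTCCTC. The stretches around GAGGAA in Fcgr1, Fcgr3, Trem2 and Clec7a are set below one another, each read on the strand that carries GAGGAA, with that motif in capitals. They lie at chr3:96294002-96294041 (plus strand), chr1:171059387-171059426 (plus strand), chr17:48346344-48346383 (minus strand) and chr6:129472853-129472892 (minus strand).
Fcgr1: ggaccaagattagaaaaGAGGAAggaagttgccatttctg
Fcgr3: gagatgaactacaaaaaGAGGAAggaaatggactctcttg
Trem2: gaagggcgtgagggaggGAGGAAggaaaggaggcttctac
Clec7a: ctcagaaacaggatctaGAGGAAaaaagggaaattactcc
In Fcgr1 the motif covers bases -55 to -50 from the annotated start, in Fcgr3 -6 to -1, in Trem2 -40 to -35 and in Clec7a -96 to -91.

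Tyrobp and Fcer1g encode the ITAM adaptors, Tyrobp for Trem2 and many other receptors and Fcer1g for the Fc receptors. Tyrobp read 1808, 2161 and 1448 on the Lip-C OBX arrays, against 1118, 820 and 1019 on the Lip-C sham arrays. In Lip-O mice it read 2409, 1648 and 954 on the OBX arrays, against 1416.5, 1122.5 and 893 on the sham arrays. The Lip-C groups did not overlap, and in Lip-O mice OBX replicate 3 fell within the sham range. The estimates were 0.86 ± 0.30 in Lip-C mice (1.81-fold, adjusted p = 0.0691) and 0.47 ± 0.30 in Lip-O mice (1.38-fold, adjusted p = 0.303). The Lip-C difference passed without Lip-O OBX replicate 1 or 3 (adjusted p = 0.0384 and 0.026) and with only the arrays compared (0.0308), and the Lip-O difference without Lip-O OBX replicate 3 (0.0451).

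Fcer1g read 736, 867 and 505 on the Lip-C OBX arrays, against 536, 338 and 429 on the Lip-C sham arrays. The Lip-O values were 978, 668 and 507 on the OBX arrays, against 562, 411 and 308 on the sham arrays. In both treatments the lowest OBX array lay below the highest sham array. The estimates were close in both treatments, 0.66 ± 0.29 in Lip-C mice (adjusted p = 0.131) and 0.72 ± 0.29 in Lip-O mice (adjusted p = 0.11), and neither passed the test. With the replicate block the Lip-O difference passed (adjusted p = 0.0322).

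**Figure D3:**
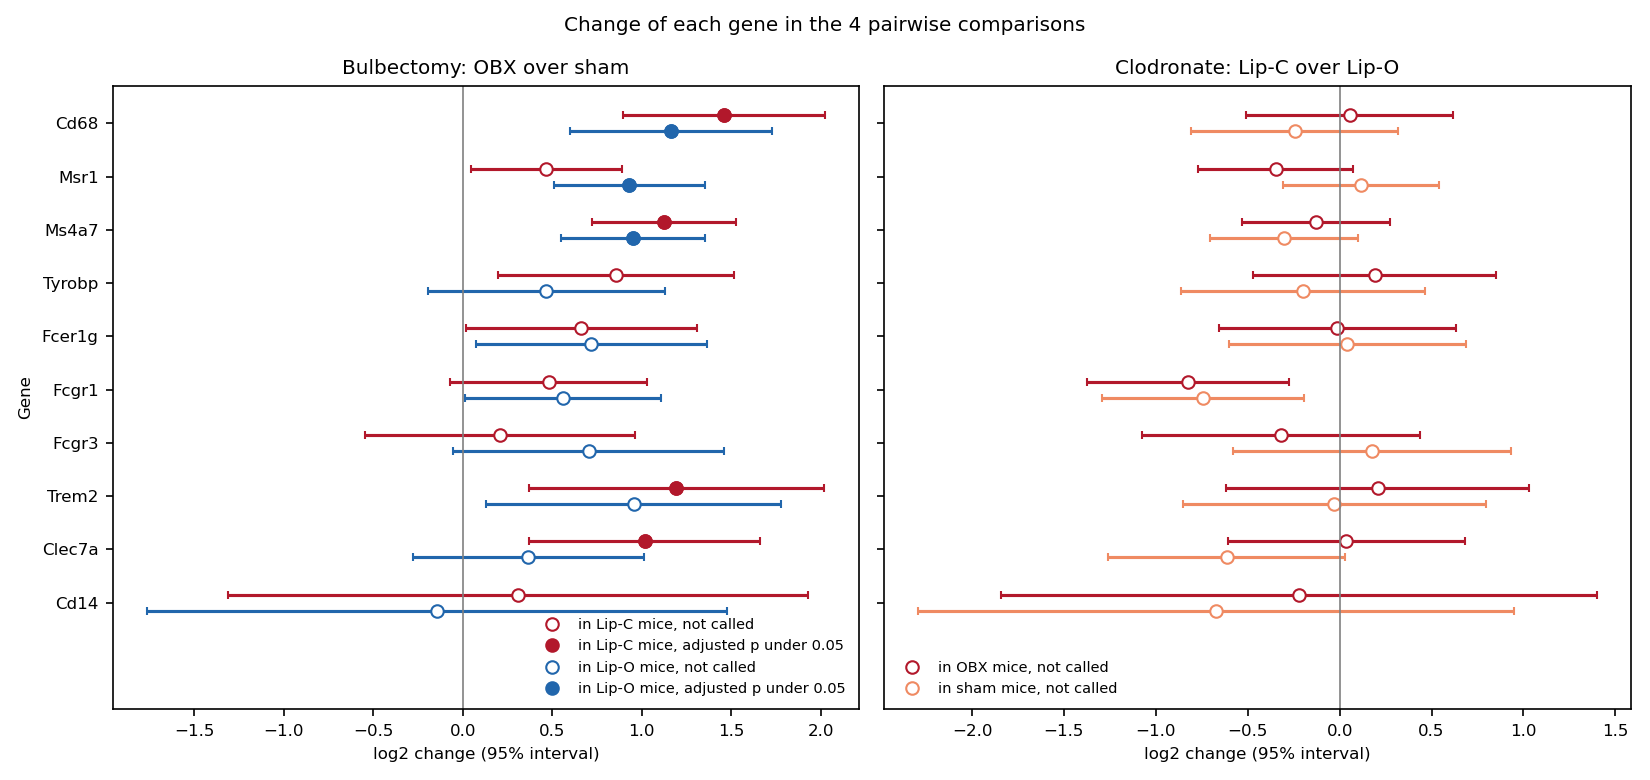
log2 change of each gene with its 95% interval from the limma model, for bulbectomy (OBX over sham, left) in Lip-C and Lip-O mice and for clodronate (Lip-C over Lip-O, right) in OBX and sham mice; filled points passed an adjusted p of 0.05. Bulbectomy intervals, which are not adjusted over genes, lie above 0 in both treatments for Cd68, Msr1, Ms4a7, Fcer1g and Trem2. Of these, Cd68 and Ms4a7 passed in both. No clodronate change passed, although both Fcgr1 intervals lie below 0. Changes of Msr1 and Fcgr1 rest on signals near the arrays' 40th percentile. Msr1 passed the filter on low signals through OBX arrays alone.

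Read by array and without a threshold, the OBX and sham arrays did not overlap for 6 of the 9 genes other than Msr1 in Lip-C mice and for 3 in Lip-O mice, always with the OBX arrays higher. Over all genes tested, the OBX arrays were all higher for 23% in Lip-C mice and 21.6% in Lip-O mice. The 6 genes were Cd68, Ms4a7, Tyrobp, Trem2, Clec7a and, by its brighter probe set alone, Fcgr1. The 3 were Cd68, Ms4a7 and Trem2. Averaged over both treatments, as the main effect of bulbectomy, 7 of the 9 genes rose, against 19.2% of all genes. Ms4a7 (1.04 ± 0.13, adjusted p = 5e-04), Cd68 (1.31 ± 0.18, adjusted p = 0.000717) and Trem2 (1.07, adjusted p = 0.0113) kept this call without any single array. Fcer1g (0.69, adjusted p = 0.0269), Clec7a (0.69, adjusted p = 0.0269), Tyrobp (0.66, adjusted p = 0.0352) and Fcgr1 (adjusted p = 0.0435) each lost it without at least 6 of the 12 arrays, one at a time. Without Lip-C OBX replicate 1 or 2, Lip-C sham replicate 2, Lip-O OBX replicate 1 or Lip-O sham replicate 3 the count was 3, and without Lip-C sham replicate 3 or Lip-O sham replicate 2 it was 4. Over all genes 3466 to 4679 passed without 1 array, against 2611 risen and 1846 fallen with all arrays. The lower counts cannot be called particular to the 9 genes. Fcgr3 (0.46, adjusted p = 0.172) and Cd14 (0.08, adjusted p = 0.918) did not pass.

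The calls depended on the level to which arrays are scaled. When each array was centred on the median log2 level of the sustentacular cell markers, the median of all genes moved to -0.32 in Lip-C mice and -0.56 in Lip-O mice. The median log2 change of these markers was itself 0.217 in Lip-C mice and 0.155 in Lip-O mice. On that scale Cd68 and Ms4a7 stayed positive in Lip-O mice, with 0.56 and 0.34 on the log2 scale, and neither passed the test (adjusted p = 0.0564 and 0.0873). In Lip-C mice Cd68 and Ms4a7 still passed, and Trem2 (0.0775) and Clec7a (0.0579) did not. Centring on the median deviation of the same markers, chosen after seeing the data, put the median of all genes at -0.19 and -0.21. Under that centring Cd68 and Ms4a7 passed in both treatments, and Trem2 (0.0789) and Clec7a (0.0571) did not pass in Lip-C mice. Of 8 sustentacular markers tested, 1 rose after bulbectomy in Lip-C mice and 3 in Lip-O mice, against 10.3% and 10.7% of all genes. Cyp1a2 rose in both, by 0.47 in Lip-C mice and 0.55 in Lip-O mice (adjusted p = 0.00552 and 0.00189).

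No gene of the 10 passed the test for clodronate liposomes in either operation. In sham-operated mice 0 genes fell in limma, where 0.814% of all genes fell. Of the 10, 1 had an unadjusted p below 0.05, against 21.9% of all genes. Negative estimates were found for 7 of the 10, and the median log2 change was -0.22 against 0.00 for all genes. The 3 Lip-C sham arrays lay below the 3 Lip-O sham arrays for Clec7a, Ms4a7 and, by its brighter probe set, Fcgr1, as they did for 13.4% of all genes. For Fcgr1 the signals of that probe set averaged 58.3 ± 6.38 in Lip-C sham and 114 ± 48.7 in Lip-O sham (SD, n = 3 arrays each; limma, adjusted p = 0.124). All 3 of its Lip-C sham signals lay below the arrays' 40th percentiles. On Fcgr1 probe set 1436625_at the arrays overlapped, at 47.6, 64.2 and 112 in Lip-C sham and 113, 103 and 125 in Lip-O sham. The log2 change there was -0.58 (limma, adjusted p = 0.122). Clec7a averaged 294.5 ± 21.0 in Lip-C sham and 468 ± 121 in Lip-O sham (log2 change -0.61 ± 0.29, adjusted p = 0.25). Ms4a7 averaged 328 ± 17.4 in Lip-C sham and 408 ± 6.40 in Lip-O sham, a log2 change of -0.30 ± 0.18 (adjusted p = 0.364). Cd68, whose product is the usual stain for macrophages, averaged 351 ± 59.6 in Lip-C sham and 426 ± 126 in Lip-O sham, with overlapping arrays (log2 change -0.24 ± 0.26, 95% interval -0.81 to 0.32, adjusted p = 0.619).

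Beside these values, 2 of 11 resident macrophage markers tested fell in Lip-C sham mice, where 0.814% of all genes fell. They were Csf1r, the receptor that macrophages need to survive (-0.83, adjusted p = 0.0427), and Aif1 (-0.90, adjusted p = 0.0471). Adgre1, another of the 11, did not pass (-0.20 ± 0.19, adjusted p = 0.578), and 2 of the 11 estimates were positive. Csf1r lost the call in 9 of the 12 fits without 1 array, all but those without Lip-C OBX replicate 3 or Lip-O OBX replicate 1 or 3, and Aif1 in 10, all but those without Lip-C OBX replicate 3 or Lip-O OBX replicate 1 (adjusted p of at most 0.136 and 0.13). The 13 macrophage markers summed to 3699 to 4261 in Lip-C sham and 5030 to 6267 in Lip-O sham, and did not overlap. These sums include Csf1r itself, at 1210 to 1474.5 in Lip-C sham and 2231 to 2589 in Lip-O sham. Ptprc, the pan-leukocyte antigen, did not pass in this comparison (-0.07 ± 0.28, adjusted p = 0.918). Osteoclast markers, of a bone cell that also uses Tyrobp, summed to 1999 to 2621 in Lip-C sham and 8828 to 10420 in Lip-O sham, and 3 of the 7 tested fell, Ctsk by 2.37 on the log2 scale (adjusted p = 0.0216), a call lost without Lip-C sham replicate 2 or 3 or Lip-O sham replicate 2 or 3 (0.0512 to 0.0869). The part of either cell type in the levels of the 10 genes was not tested.

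In bulbectomised mice none of the 10 genes fell or rose in limma, where 0.22% of all genes fell and 0.125% rose. Among the 10, 1 had an unadjusted p below 0.05, against 12.7% of all genes. Negative estimates were found for 6, and the median was -0.07. Fcgr1 averaged 88.3 ± 16.98 in Lip-C OBX and 170 ± 41.1 in Lip-O OBX (log2 change -0.82 ± 0.25, 95% interval -1.37 to -0.27, adjusted p = 0.202). It was the single gene of the 10 whose Lip-C OBX arrays all lay below the Lip-O OBX arrays, as 7.81% of all genes did. Its other probe set, 1436625_at, had 90.2 ± 1.48 in Lip-C OBX and 110 ± 12.3 in Lip-O OBX (adjusted p = 0.68). Cd68 averaged 990.5 ± 128 in Lip-C OBX and 986 ± 328 in Lip-O OBX, a log2 change of 0.05 ± 0.26 with a 95% interval of -0.51 to 0.62. Tyrobp averaged 1805 ± 357 in Lip-C OBX and 1670 ± 728 in Lip-O OBX, 0.19 ± 0.30 on the log2 scale. Ptprc had 0.61 ± 0.28 in the same comparison (adjusted p = 0.398), and S100a8 0.93 ± 0.31 (adjusted p = 0.253).

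As the main effect of clodronate over both operations, 8 of the 10 estimates were negative and none passed the test in limma, at a background of 0.829% of all genes fallen. Fcgr1 came nearest, with an adjusted p of 0.0597, and passed without Lip-O sham replicate 3 (0.0334). Whether bulbectomy acted differently under clodronate is the interaction. No gene of the 10 passed it, as 0% of all genes did, and none of the 10 had an unadjusted p below 0.05, against 17.6% of all genes. After Clec7a, the largest estimates were -0.49 ± 0.48 for Fcgr3 (adjusted p = 0.629) and that of Msr1 (adjusted p = 0.398). The 95% interval for Cd68 was -0.50 to 1.10, so a difference of up to 1.10 on the log2 scale between both bulbectomy effects lies within the error of 3 arrays a group.

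The order of the group means differed among the 10 genes. Lip-C sham had the lowest mean for 7 of them, Cd68, Ms4a7, Tyrobp, Fcgr1, Trem2, Clec7a and Cd14, although for Trem2 it equalled Lip-O sham at 85.5. Lip-O sham was lowest for Msr1, Fcer1g and Fcgr3. The highest mean was that of Lip-O OBX for 6 genes, of Lip-C OBX for Cd68, Tyrobp and Trem2, and of Lip-O sham for Cd14. Of neighbours in these orders, the Lip-C and Lip-O arrays of the same operation overlapped except in the 4 cases named above. For Fcgr1 both Lip-C means, 88.3 in OBX and 58.3 in sham, lay below both Lip-O means, 170 in OBX and 114 in sham. Cd14 had the same order by treatment, with means of 1022 and 963 in Lip-C mice and 1276 and 2104 in Lip-O mice, and its arrays overlapped.

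Much of the spread within a group was common to most of the genes. Replicate 1 had the highest signal for 9 of the 10 genes in Lip-C sham, in Lip-O OBX and in Lip-O sham. Replicate 3 had the lowest for 8 genes in Lip-C OBX and in Lip-O sham and for 6 in Lip-O OBX. Msr1 was the exception in Lip-O OBX, where replicate 1 was its lowest array. Averaged over the 10 genes, Lip-O OBX replicate 1 lay 0.44 above its group mean on the log2 scale and replicate 3 lay -0.39 from it. On those arrays Omp, the marker of mature olfactory neurons, read 6769 on replicate 1 and 11517 on replicate 3, and Ptprc read 984 on replicate 1 and 537 on replicate 3. The replicate numbers are labels and have no order, and the part of cell makeup or dissection in this spread was not tested.

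**Figure D4:**
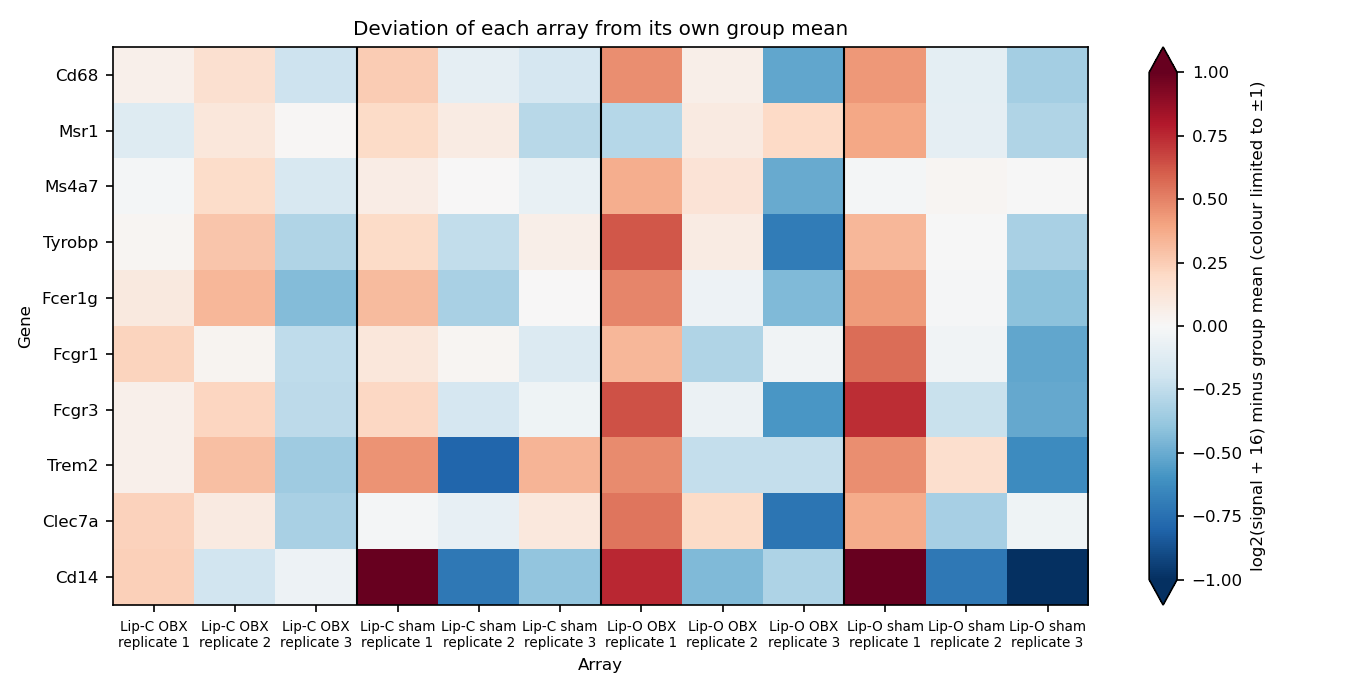
Deviation of each array (columns, by group and replicate) from the mean of its own group for each of the 10 genes (rows), in log2(signal + 16), with red above and blue below the group mean and the colour limited to 1 in either direction. Lip-O OBX replicate 1 and Lip-O sham replicate 1 are high for 9 of the 10 genes, and the Msr1 row differs from the others in Lip-O OBX.

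After group means were removed, the 36 pairs among the 9 genes other than Msr1 correlated at r from 0.199 to 0.965 over the 12 arrays, with a median of 0.751. The closest were Cd68 with Fcgr3 (0.965) and Tyrobp with Fcer1g (0.936), the adaptors. The 9 pairs with Msr1 ran from -0.292 to 0.497, with a median of 0.133. These correlations describe 12 arrays that share their scaling and tissue, and they carry no test.

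Over the 12 arrays the genes most like Cd68 were Arpc5, a subunit of the actin-branching Arp2/3 complex (r = 0.992), C1qb (0.972), Elovl1, an enzyme that elongates fatty acids (0.970), C1qc (0.970) and Shroom2 (0.966). C1qb and C1qc encode chains of complement C1q, which macrophages secrete. Those most like Msr1 were Gclm, a subunit of the enzyme that starts glutathione synthesis (r = 0.939), Spag7 (0.929), Bcl2l11, which encodes the pro-apoptotic protein Bim (0.921), Stat3 (0.897) and Jpt2 (0.895). No gene stood in both lists. With group means removed, r was between 0.823 and 0.952 for the genes like Cd68 and between 0.595 and 0.862 for those like Msr1.

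Other genes of the same pathways were read from lists set beside the 10 genes. Their counts stand against 10.3% of all genes risen in Lip-C mice and 10.7% in Lip-O mice. Of 4 other Fc receptor and Fc receptor-like genes tested, the Fc receptor-like Fcrls rose in both treatments, by 1.30 in Lip-C mice (adjusted p = 0.0047) and 0.86 in Lip-O mice (adjusted p = 0.0109), and kept both calls without any single array. Fcgr4 and Fcgrt did not pass in either treatment. Fcgr2b, the inhibitory IgG receptor, rose in Lip-O mice by 1.17 (adjusted p = 0.0287), a call lost without Lip-O OBX replicate 1 or 3 or Lip-O sham replicate 2 or 3 (adjusted p of 0.0698 to 0.106). Of 13 other scavenger and lectin receptors, 4 rose in Lip-C mice and 2 in Lip-O mice. Stab1, which clears apoptotic cells, rose in both, by 0.86 in Lip-C mice (adjusted p = 0.00528) and 0.79 in Lip-O mice (adjusted p = 0.00412), and Scarb1, a lipoprotein receptor, rose in Lip-O mice by 0.72 (adjusted p = 0.00637). These 3 calls also held without any single array. Cd209a, a lectin of dendritic cells and macrophages, read 82.9, 116 and 76.6 on the Lip-C OBX arrays, against 26.0, 55.7 and 52.3 on the Lip-C sham arrays, and rose (adjusted p = 0.0284) unless Lip-C OBX replicate 1 or 2 or Lip-C sham replicate 1 was left out (0.0693 to 0.102).

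Of 12 kinases and effectors downstream of ITAM adaptors, 4 rose in Lip-C mice and 1 in Lip-O mice, against 10.3% and 10.7% of all genes. The Lip-O count is near that share. Blnk, an adaptor that Syk phosphorylates, rose in both, by 0.49 in Lip-C mice (adjusted p = 0.021) and 0.50 in Lip-O mice (adjusted p = 0.0161), and Inpp5d, a phosphatase that restrains these receptors, rose in Lip-C mice by 0.54 (adjusted p = 0.0248). Each of these calls was lost without at least 1 array: for Blnk Lip-C OBX replicate 2, Lip-C sham replicate 1 or 2, or Lip-O sham replicate 3, and for Inpp5d Lip-C OBX replicate 1 or 2 or any Lip-C sham array (adjusted p of 0.0545 to 0.081). Pik3ap1, an adaptor for PI3 kinase, read 118, 152.5 and 130.4 on the Lip-C OBX arrays, against 80.8, 82.0 and 74.8 on the Lip-C sham arrays, and rose (adjusted p = 0.021) unless Lip-C OBX replicate 2 or Lip-C sham replicate 2 or 3 was left out (0.0563 to 0.0789). Syk itself did not pass, with 0.69 ± 0.28 in Lip-C mice (adjusted p = 0.108) and 0.07 ± 0.28 in Lip-O mice (adjusted p = 0.897). A further list held 9 genes of Trem, Cd300, integrin and other receptors, not all of which pair with Tyrobp. Of these, none rose in Lip-O mice, and 1, Cd300lb, was past the threshold in Lip-C mice, a count near the share of all genes. It read 104, 102 and 90.4 on the Lip-C OBX arrays, against 54.6, 53.9 and 53.7 on the Lip-C sham arrays (adjusted p = 0.0151; 0.0527 and 0.0589 without Lip-C OBX replicate 1 or 2), and it passed the filter on low signals through the 3 Lip-C OBX arrays and 2 others, so its call is no independent support.

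Of 9 genes of lipopolysaccharide sensing, 1 rose in each treatment, near the share of all genes (10.3% in Lip-C mice and 10.7% in Lip-O mice). Ly86, which pairs with the Tlr4 relative Cd180, rose in Lip-C mice by 0.87 (adjusted p = 0.0155), a call lost without Lip-C OBX replicate 1 (0.0634). Tirap, an adaptor of Tlr4, rose in Lip-O mice by 0.56 (adjusted p = 0.0441), a call that held only in the fits without Lip-C sham replicate 3 or Lip-O sham replicate 1 when 1 array was left out (0.0525 to 0.156 otherwise). Tlr4, the receptor that Cd14 serves, did not pass, with 0.32 ± 0.17 in Lip-C mice (adjusted p = 0.202) and -0.03 ± 0.17 in Lip-O mice (adjusted p = 0.914). Of 4 other myeloid Ms4a genes, 1 rose in Lip-C mice, Ms4a6b by 0.83 (adjusted p = 0.0282), and none in Lip-O mice. Of 3 ligand genes, 2 rose in both treatments: Apoe, a ligand of Trem2, by 0.44 in Lip-C mice and 0.62 in Lip-O mice (adjusted p = 0.0219 and 0.00456), and Clu by 0.57 and 0.61 (adjusted p = 0.021 and 0.0134). The Apoe call in Lip-O mice held without any single array. In Lip-C mice Ms4a6b, Apoe and Clu lost the call without Lip-C OBX replicate 1 or 2 or Lip-C sham replicate 2, and Ms4a6b and Clu also without Lip-C sham replicate 3 (adjusted p of 0.0594 to 0.107). For Clu in Lip-O mice the call needed both Lip-O OBX replicate 1 and Lip-O sham replicate 3 (0.0512 and 0.0555 without them, one at a time). None of 5 subunits of the phagocyte oxidase rose in either treatment.

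Of 12 myeloid transcription factors, 3 rose in Lip-C mice and 2 in Lip-O mice, against 10.3% and 10.7% of all genes. Runx1 rose in both, by 0.52 in Lip-C mice and 0.52 in Lip-O mice (adjusted p = 0.0221 and 0.0195), and Irf8 rose in Lip-C mice by 0.88 (adjusted p = 0.017). Tfeb, a regulator of lysosomal genes, rose in Lip-O mice by 0.52 (adjusted p = 0.0295). Without Lip-C OBX replicate 1 or 2 both Irf8 and Runx1 lost the Lip-C call, as did Irf8 without Lip-C sham replicate 2 and Runx1 without Lip-C sham replicate 3 (adjusted p of 0.0569 to 0.0866). In Lip-O mice Runx1 lost it without Lip-O OBX replicate 1 or Lip-O sham replicate 3, and Tfeb also without Lip-O OBX replicate 2 or Lip-O sham replicate 1 or 2 (0.0551 to 0.103). Spi1, whose product PU.1 binds sites with the GAGGAA core shown above, did not pass, with 0.21 ± 0.20 in Lip-C mice (adjusted p = 0.479) and 0.17 ± 0.20 in Lip-O mice (adjusted p = 0.607).

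**Figure D5:**
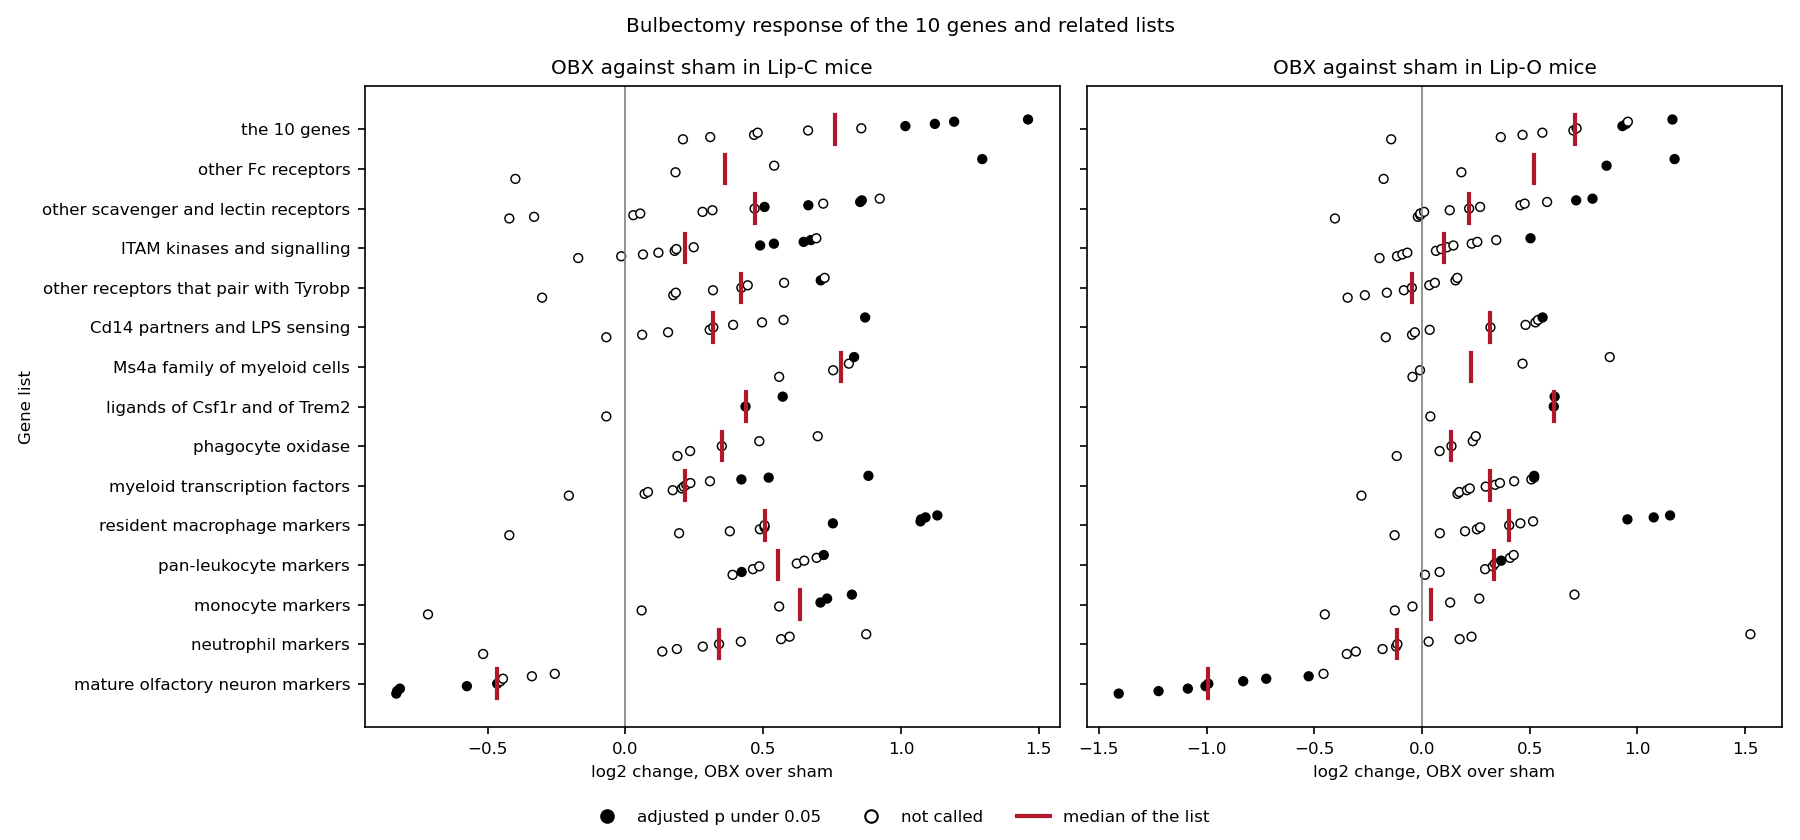
log2 change after bulbectomy (OBX over sham) of every tested gene of the 10 and of 14 related lists, in Lip-C mice (left) and Lip-O mice (right); filled points passed an adjusted p of 0.05 and the red bar is the median of a list. With Msr1 included, the median of the 10 genes is 0.76 in Lip-C mice and 0.71 in Lip-O mice, and the mature olfactory neuron markers lie below 0 in both. The list labelled as pairing with Tyrobp holds receptors that do not all pair with it, and that of other Fc receptors holds the Fc receptor-like gene Fcrls.

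Markers of the cells that could carry these genes were read in the same comparisons. Among all genes, 10.3% rose in Lip-C mice and 10.7% in Lip-O mice, and 8.83% fell in each. Of 11 resident macrophage markers tested, 6 rose in Lip-C mice and 3 in Lip-O mice. The latter 3 all encode chains of complement C1q. C1qc rose in both, by 1.09 in Lip-C mice and 1.15 in Lip-O mice (adjusted p = 0.0122 and 0.00745). Aif1 rose in Lip-C mice by 1.13 (adjusted p = 0.0067). These calls of C1qc and Aif1 held in every fit with 1 array left out, and the others did not. In Lip-C mice C1qa, C1qb and Csf1r each failed in 4 such fits and Mrc1 in 9 (adjusted p of 0.0514 to 0.154). In Lip-O mice C1qa and C1qb each failed in 3 (0.0536 to 0.0815). Csf1r rose by 0.75 in Lip-C mice (adjusted p = 0.0181). Its Lip-O estimate, 0.20 ± 0.18, did not pass (adjusted p = 0.46). The markers summed to 5814 to 7836 in Lip-C OBX and 3699 to 4261 in Lip-C sham, and to 6907 to 10730 in Lip-O OBX and 5030 to 6267 in Lip-O sham, with no overlap between operations in either treatment. Adgre1, which encodes the macrophage antigen F4/80, did not pass (0.49 ± 0.19 in Lip-C mice and 0.26 ± 0.19 in Lip-O mice, adjusted p = 0.0974 and 0.383). Of 8 pan-leukocyte markers 2 rose in Lip-C mice and 1 in Lip-O mice, and the sums overlapped in both treatments. Of 6 monocyte markers, 3 rose in Lip-C mice, Ccr2, Fn1 and F13a1 (0.73, 0.82 and 0.71, adjusted p = 0.0226, 0.0249 and 0.0392), and none in Lip-O mice. Each of these 3 calls was lost without Lip-C OBX replicate 1 or 2 or Lip-C sham replicate 2, among other arrays (adjusted p of 0.0508 to 0.129). None of 9 neutrophil markers rose, and the neutrophil sums overlapped, with 47480 to 74660 in Lip-C OBX, 37820 to 63010 in Lip-C sham, 40170 to 55990 in Lip-O OBX and 31720 to 59450 in Lip-O sham. Of mast cell markers, Cpa3, Mcpt4, Tpsb2, Mcpt8, Ms4a2 and Fcer1a lay below the 40th percentile on every array. Of NK and T cell markers, so did Ncr1, Gzmb, Cd3e, Cd3d and Cd2. Mature neuron markers fell, 5 of 9 in Lip-C mice and 8 of 9 in Lip-O mice, Omp among them in Lip-O mice by 1.01 on the log2 scale (adjusted p = 0.00397). The part of cell numbers in the changes of the 10 genes was not tested.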

How the data were processed

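Total RNA of the dissected olfactory epithelium was labelled as biotin cRNA and hybridised to Affymetrix arrays, per the labels' protocols. The deposited values are scaled intensities per probe set on a linear scale, and each array had the same 2% trimmed mean of 500. The summary algorithm and the scaling step are not given in the sources used here. Of 45101 probe sets, 64 controls were left out, and 34945 had 1 gene in the platform annotation, 932 several and 9160 none. A probe set was kept if at least 3 arrays had it above their 40th percentile (28986 were), and the one with the highest mean stood for its gene, giving 13628 genes.

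Values were taken as log2(signal + 16), a scale that understates the change of dim genes, and fitted with limma 3.58.1 in R 4.3.3 with a mean for each of the 4 groups, all 12 arrays sharing 1 estimate of the spread (8 residual degrees of freedom). 7 comparisons were made: bulbectomy in each treatment, clodronate in each operation, both main effects and the interaction. P-values are two-sided and were adjusted over all genes tested by the Benjamini-Hochberg method, with 0.05 as the threshold. Exact permutation of 3 against 3 arrays cannot go below 0.1. The number of arrays limits the precision; the median SE of a log2 change between groups was 0.124 over all genes. The fit was tested on simulated data before use. Every pair of same-numbered arrays of Lip-O OBX and Lip-O sham had correlated deviations from the group means (r from 0.134 to 0.312), a pairing read from the data and not from the labels, so the replicate block is given beside the results of that comparison that it changes.

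The 10 genes and the 22 lists beside them were chosen with earlier results of these data known, so their counts are descriptions and not independent support. From each list the text names up to 3 genes with the lowest adjusted p among those past the threshold, with 10 reference genes, and the 5 genes most correlated with Cd68 and with Msr1. Promoter windows came from the RefSeq table of GRCm38.p6. Alternatives were other pseudocounts, no filter, quantile, median and sustentacular centring, the mean of probe sets, a trended robust prior, a replicate block, only the groups compared, and each array left out.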

Additional observations from a re-analysis of the deposited data

Results flagged for a closer look

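Fcgr3, the low-affinity IgG receptor, had clodronate estimates of opposite sign under the different operations. The log2 change of Lip-C over Lip-O was -0.32 in bulbectomised mice and 0.18 in sham-operated mice. On the log2 scale, every Lip-C OBX array lay below the mean of the Lip-O OBX arrays, and every Lip-C sham array lay above the mean of the Lip-O sham arrays. The signals of Lip-C and Lip-O mice overlapped within each operation, and the interaction, which tests this difference itself, did not pass in limma (-0.49 ± 0.48, adjusted p = 0.629).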

How the results depend on the processing

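The counts here include Msr1, which passed the filter through OBX arrays alone. Of the values of the 10 genes under all alternatives, 1404 kept their direction and their side of the threshold, 71 lost the call, 19 gained it, 86 moved without a call, and none that had passed changed sign. Without 1 array, 3 to 5 of the 10 genes passed for bulbectomy in Lip-O mice, 2 to 5 in Lip-C mice, 4 to 9 in its main effect, 0 to 1 in the main effect of clodronate, and 0 in the other comparisons. Over all genes these fits gave 1414 to 2788, 840 to 3030 and 3466 to 4679 for the same bulbectomy comparisons, 17 to 317 for clodronate in sham mice, 7 to 77 in OBX mice, 85 to 260 in its main effect and 0 to 159 for the interaction. With the deposited scaling and all arrays the counts over all genes were 2666 (1462 rose, 1204 fell) for bulbectomy in Lip-O mice, 2606 (1403, 1203) in Lip-C mice and 4457 (2611, 1846) in its main effect, and 283 (172, 111) for clodronate in sham mice, 47 (17, 30) in OBX mice and 218 (105, 113) in its main effect.

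Centring on the sustentacular markers moved the median of all genes by construction. Bulbectomy then passed for 0 of the 10 genes in Lip-O mice, 2 in Lip-C mice and 2 in the main effect, and for 9786 (42 rose, 9744 fell), 6045 (139, 5906) and 9737 (57, 9680) of all genes. Clodronate passed for 5243 (5202, 41) in OBX mice, 4252 (4154, 98) in the main effect and 10 in the interaction. Centring on the median deviation of these markers, chosen after seeing the data, gave 2 of the 10 genes for bulbectomy in Lip-C mice and 4 in its main effect, and 4043 (306, 3737), 3990 (341, 3649), 1798 (1697, 101), 640 (609, 31) and 4055 (3947, 108) of all genes for bulbectomy in Lip-O and Lip-C mice and clodronate in sham mice, OBX mice and its main effect. That median deviation centring changed no bulbectomy call of the 10 genes in Lip-O mice. Centring on array medians changed the split of bulbectomy calls to 1139 risen and 1427 fallen in Lip-O mice.

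With no filter, 2 of the 10 genes passed for bulbectomy in Lip-C mice, and 1725 of all genes, with 56, 107 and 1 for clodronate in sham mice, its main effect and the interaction. A trended robust prior gave 620, 97 and 108 for clodronate in sham mice, in OBX mice and the interaction. Only the arrays compared gave 1577 for bulbectomy in Lip-O mice and 79 and 2 for clodronate in sham and OBX mice. In the main effect of clodronate 1 of the 10 genes, Fcgr1, passed under median centring, both sustentacular centrings, the mean of probe sets, the trended prior and the replicate block. Causes of these changes other than scaling and fewer samples or more genes tested were not tested.

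Of 18 same-number correlations of deviations, 10 exceeded 0.1 (range -0.03 to 0.325, median 0.126), against -0.336 to 0.181 for other numbers, and Lip-O OBX with Lip-O sham was the single pair of groups in which all 3 did. With the replicate block 5 of the 10 genes passed for bulbectomy in Lip-O mice, against 3 without it, and 6 in Lip-C mice, against 4, where Tyrobp and Fcer1g were added (adjusted p = 0.0313 and 0.0429). Apart from these and Fcgr1 above, the block changed no call of the 10 genes. The share of all genes that passed with the block is not given here, so the gains cannot be called particular to the 10 genes. With 3 arrays a group, and Msr1 and Fcgr1 near the 40th percentile, small differences of these genes are not resolved.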

Other observations

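In bulbectomised mice, the clodronate estimates of other lists of the same machinery differed in sign, and no gene of those named next passed in limma. Log2 changes of Lip-C over Lip-O were positive for all 9 listed Trem, Cd300, integrin and other receptors, not all of which pair with Tyrobp (median 0.29). They were also positive for 10 of 12 ITAM kinases and effectors and for all 5 oxidase subunits, with medians of 0.23 and 0.52. They were positive for 2 of 4 other Fc receptor and Fc receptor-like genes, 4 of 9 genes of lipopolysaccharide sensing and 3 of 11 resident macrophage markers, with medians of -0.22, -0.07 and -0.28. Neutrophil markers had a median of 0.82 (6 of 9 positive) and pan-leukocyte markers of 0.35 (7 of 8), and their part in the other lists was not tested. Of 6 monocyte markers, F13a1 rose by 1.39 (adjusted p = 0.021), where 0.125% of all genes rose. That call was lost without Lip-C OBX replicate 2 or Lip-O OBX replicate 1 or 2 (0.0585 to 0.106).

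Liver plasma protein genes summed to 490 to 2093 on the Lip-O OBX arrays and 159 to 219 on the Lip-O sham arrays. The sums were 169 to 259 in Lip-C OBX and 134 to 178 in Lip-C sham. Alb read 5.6, 41.3 and 10.2 on the Lip-C OBX arrays, against 527, 1184 and 151 on those of Lip-O OBX. Alb and Ttr passed the filter on low signals through the Lip-O OBX arrays alone. None of the 4 genes tested passed the interaction in limma.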
